A study of Homo sapiens with 12 samples.

Results

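The messenger RNAs described here are those of 10 genes of the amino acid stress response and of serine synthesis: ATF4, DDIT3, TRIB3, ASNS, CHAC1, SESN2, PSAT1, PHGDH, SHMT2 and MTHFD2. They were chosen by name from the 58381 genes of the deposited expression table, and each name matched 1 row. Earlier results of these data were known when they were chosen. RNA was sequenced from the cell line 786-O, which derives from a clear cell renal cell carcinoma and was grown in DMEM with fetal bovine serum. Cells had received a lentivirus with 1 of 3 hairpins that target RARRES2 (groups shRARRES2_1, shRARRES2_2 and shRARRES2_3), or a control hairpin against GFP (shGFP). Each of the 4 groups held 3 libraries, so all 12 libraries came from infected cells, and the design asks what changes when RARRES2, which encodes the secreted protein chemerin, is knocked down. The labels do not say whether replicates are separate infections or cultures, and the p-values below therefore measure only the spread between these libraries, which may be technical.

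ATF4 is a transcription factor whose protein is made when the initiation factor eIF2 is phosphorylated, as happens when amino acids run short or the endoplasmic reticulum is stressed. Upstream reading frames in its messenger RNA control its translation, so the level of the mRNA need not follow that of the protein, which was not measured. Its known targets include stress regulators (DDIT3, TRIB3, SESN2, CHAC1), asparagine synthetase (ASNS) and the enzymes that make serine from a glycolytic intermediate (PHGDH, then PSAT1, then PSPH) and pass its carbon to mitochondrial folate (SHMT2, MTHFD2).

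ATF4 binds as a dimer with C/EBP proteins to a composite element, and the ASNS and CHAC1 promoters are shown because, of the 9 genes with a RefSeq promoter window (GRCh38.p14), they alone held a match to TGATGNAA, searched on both strands in the 250 bases before the start. That motif was in 3.14% of 35116 such windows. ASNS has 2 windows, and the one shown was picked for its match. The capitals mark the match, which begins 68 bases before the RefSeq start used for ASNS, on the sense strand. For CHAC1 it begins 209 bases before the RefSeq start, on the antisense strand. The CHAC1 window lies inside the gene span given below, and that of ASNS does so in part.
ASNS, chr7:97872409-97872658, minus strand: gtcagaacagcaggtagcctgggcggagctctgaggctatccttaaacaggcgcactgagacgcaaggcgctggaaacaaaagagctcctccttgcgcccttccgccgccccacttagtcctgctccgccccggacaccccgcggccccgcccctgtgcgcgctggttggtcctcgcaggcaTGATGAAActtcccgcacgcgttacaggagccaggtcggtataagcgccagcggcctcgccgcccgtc
CHAC1, chr15:40953221-40953470, plus strand: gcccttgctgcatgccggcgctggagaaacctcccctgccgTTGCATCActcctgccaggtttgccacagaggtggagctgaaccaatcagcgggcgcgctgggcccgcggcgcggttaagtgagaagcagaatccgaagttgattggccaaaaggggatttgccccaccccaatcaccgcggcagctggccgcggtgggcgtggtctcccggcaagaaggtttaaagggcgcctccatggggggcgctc
The E-box CACGTG was in at least 1 of the 2 ATF4 windows, as in 6.34% of all windows, and the cAMP element TGACGTCA, in 1.65% of all windows, was in none of the 9. The endoplasmic reticulum stress element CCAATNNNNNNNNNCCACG, in 0.0740% of all windows, was likewise in none of the 9. A match describes these letters and does not show binding.

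RARRES2 itself was at 39.7 ± 1.91 CPM with shRARRES2_1, 73.2 ± 19.5 CPM with shRARRES2_2 and 44.8 ± 4.72 CPM with shRARRES2_3, against 587 ± 192 CPM with shGFP (SD, n = 3 each), with no overlap, so the libraries carry the knockdown their labels give. Values are CPM, read counts scaled to library depth with TMM factors; recovered depth was 12599424 to 23594195 reads on genes per library, and 3 reads corresponded to 0.131 to 0.223 CPM. PAX8, which marks renal epithelial cells, was at 239 to 594 CPM in every library, while the 6 leukocyte markers summed to at most 2.87 CPM and the 5 endothelial markers to at most 5.09 CPM. The 7 keratinocyte markers summed to 467 CPM in shGFP replicate 2, and to between 7.73 and 36.2 CPM in each of the remaining 11. The 5 fibroblast markers summed to 74.2 CPM in shRARRES2_2 replicate 1, mostly LUM at 70.2 CPM, to 32.9 CPM in shGFP replicate 2 and to between 2.08 and 18.0 CPM elsewhere. Replicates 2 and 3 of shRARRES2_1 lay much closer to each other than any other pair of replicates, with a chi-square per gene of 2.95 against 64.8 to 378 for the other pairs, which is still above sampling noise, so both were kept. The 8 proliferation markers summed to 198 to 3160 CPM. Replicate 1 of shRARRES2_1 and of shRARRES2_3 had reads on 21217 and 20932 genes, against 24065 to 27603 in every other library. All CPM values of these libraries summed to 1252991 and 1269197, against 868477 to 1050746 elsewhere.

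None of the 9 genes that passed the filter on low values (at least 1 CPM in at least 3 libraries) changed with any hairpin, at a Benjamini-Hochberg adjusted p under 0.05 from limma over all 15236 genes tested. In each of the comparisons with shRARRES2_1, shRARRES2_2 and the mean of the hairpins, and in the F-test between the hairpins, 1 of the 9 had an unadjusted p under 0.05; with shRARRES2_3, 0 of the 9 did. Over all genes tested the share with an unadjusted p under 0.05 was 16.7% with shRARRES2_1, 13.7% with shRARRES2_2, 3.32% with shRARRES2_3, 12.6% for the mean and 11% between the hairpins, beside which 1 of 9 members is 11.1%. The members under it were MTHFD2 with shRARRES2_1 and between the hairpins, and ASNS with shRARRES2_2 and for the mean of the hairpins. edgeR and DESeq2, run on recovered reads, also called 0 of the 9. Of the 15236 genes, edgeR called 3 with shRARRES2_1, 4 with shRARRES2_2, 1 with shRARRES2_3, 1 for the mean and 20 between the hairpins. DESeq2 called 497, 345, 16, 132 and 590 in the same order, and its smallest DESeq2 adjusted p for a member was 0.0817. With limma few genes were called at all: 0.171% of those tested with shRARRES2_1, 0.0459% with shRARRES2_2, 0.00656% with shRARRES2_3, 0.00656% for the mean of the hairpins and 0.249% between the hairpins. Without shRARRES2_3 replicate 2, limma called 358 genes for the mean of the hairpins in place of 1, none of them a member. A p that misses the threshold does not show that these mRNAs were equal, and the standard errors given below show how wide the uncertainty is. In bulk RNA, fewer cells of a type and less RNA per cell cannot be told apart. PHGDH, the tenth gene, did not pass the filter and was not tested.

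ATF4 (chromosome 22, 39519695 to 39522685, GRCh38, plus strand), the regulator, was at 449, 297 and 309 CPM with shRARRES2_1, 365, 214 and 459 CPM with shRARRES2_2 and 353, 137 and 444 CPM with shRARRES2_3, against 379, 224 and 371 CPM with shGFP, in the order of replicates 1, 2 and 3, as in all lists of values below. The 4 groups overlapped, and replicate 2 was the lowest library of each group. On the log2(CPM + 1) scale, ATF4 differed from shGFP by 0.13 with shRARRES2_1, 0.06 with shRARRES2_2 and -0.18 with shRARRES2_3 (SE 0.44 each; limma adjusted p = 0.883, 0.956 and 0.932). For the mean of the hairpins the difference was 0.00 (SE 0.36, limma adjusted p = 0.997). Only 5.43% of its variance over the 12 libraries lay between the groups, against a median of 33.5% over all genes tested. The 3 annotated ATF4 pseudogenes held 18 reads in all, against 78256 for ATF4. The sign of the ATF4 difference turned in each comparison when single libraries were left out, shGFP replicate 2 among them for shRARRES2_1 (-0.12), shRARRES2_2 (-0.18) and the mean of the hairpins (-0.24).

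DDIT3, which encodes the stress factor CHOP (chromosome 12, 57516588 to 57521737, minus strand), was at 10.5, 6.54 and 11.3 CPM with shRARRES2_2, against 11.95, 15.2 and 20.9 CPM with shGFP. All 3 libraries of that hairpin lay below all 3 control libraries, at a log2 difference of -0.70 (SE 0.38, limma adjusted p = 0.422). The other hairpins overlapped the control, with 18.4, 17.4 and 15.4 CPM for shRARRES2_1 and 9.16, 9.18 and 23.6 CPM for shRARRES2_3. TRIB3, a pseudokinase induced by ATF4 and CHOP that restrains ATF4 activity (chromosome 20, 362835 to 397559, plus strand), was at 96.2, 43.3 and 99.0 CPM with shRARRES2_2, against 166, 104 and 226 CPM with shGFP. Here too the libraries did not overlap, at a log2 difference of -1.07 (SE 0.54, limma adjusted p = 0.396). With shRARRES2_1 TRIB3 was at 315, 100 and 97.0 CPM, and with shRARRES2_3 at 243, 89.4 and 244 CPM, and replicate 1 of shRARRES2_1 stood far above its replicates. The exons of DDIT3 overlap those of MARS and MBD6 on the opposite strand, and the sources used here do not say whether counting used strand. They also overlap those of AC022506.1, a protein-coding gene on the same strand, which a strand setting would not separate.

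Lack of overlap was common in this data set. With shRARRES2_2, 11.7% of all genes tested had all libraries below shGFP and 16.4% had all above it, and the members gave 2 of 9 and 0 of 9. With shRARRES2_1 the shares of all genes were 15.0% below and 17.0% above, against 1 of 9 and 0 of 9 members. With shRARRES2_3 they were 3.63% below and 3.03% above, and no member was separated from shGFP.

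CHAC1, which degrades glutathione and is induced late in the response (chromosome 15, 40952962 to 40956519, plus strand), was at 19.0, 12.6 and 12.1 CPM with shRARRES2_1, 19.0, 2.08 and 28.0 CPM with shRARRES2_2 and 10.95, 3.24 and 28.8 CPM with shRARRES2_3, against 30.0, 4.78 and 27.3 CPM with shGFP. The spread within groups exceeded that between them, and 4.68% of its variance lay between the groups. The log2 differences of CHAC1 were -0.17, -0.50 and -0.58 with shRARRES2_1, shRARRES2_2 and shRARRES2_3 (SE 0.89 each; limma adjusted p = 0.927, 0.805 and 0.899). For the mean of the hairpins it was -0.42 (SE 0.73, limma adjusted p = 0.782). SESN2, a leucine sensor that restrains mTORC1 (chromosome 1, 28259527 to 28282491, plus strand), was at 83.6, 45.3 and 45.9 CPM with shRARRES2_1, 69.1, 17.4 and 70.5 CPM with shRARRES2_2 and 59.99, 23.2 and 69.3 CPM with shRARRES2_3, against 68.5, 25.8 and 50.8 CPM with shGFP. All groups overlapped, and the mean of the hairpins differed by 0.11 (SE 0.47, limma adjusted p = 0.920).

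ASNS, which makes asparagine from aspartate and glutamine (chromosome 7, 97852118 to 97872542, minus strand), was low in these cells and lower on average with every hairpin. It was at 0.425, 2.81 and 3.34 CPM with shRARRES2_1, 0.846, 0.416 and 3.23 CPM with shRARRES2_2 and 0.406, 1.496 and 3.07 CPM with shRARRES2_3, against 4.01, 2.34 and 7.59 CPM with shGFP. Each hairpin overlapped the control because 1 shGFP library, replicate 2, fell within their range. The log2 differences were -0.87, -1.23 and -1.11 for shRARRES2_1, shRARRES2_2 and shRARRES2_3 (SE 0.56 each; limma adjusted p = 0.407, 0.362 and 0.876). The mean of the hairpins gave -1.07 (SE 0.46, limma adjusted p = 0.386). The 3 comparisons share the shGFP libraries. These values rest on 7 to 171 reads per library, and a transcript on the same strand, AC079781.5, overlaps up to 1985 bases of ASNS exon, so the split of reads between them is uncertain.

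**Figure D1:**
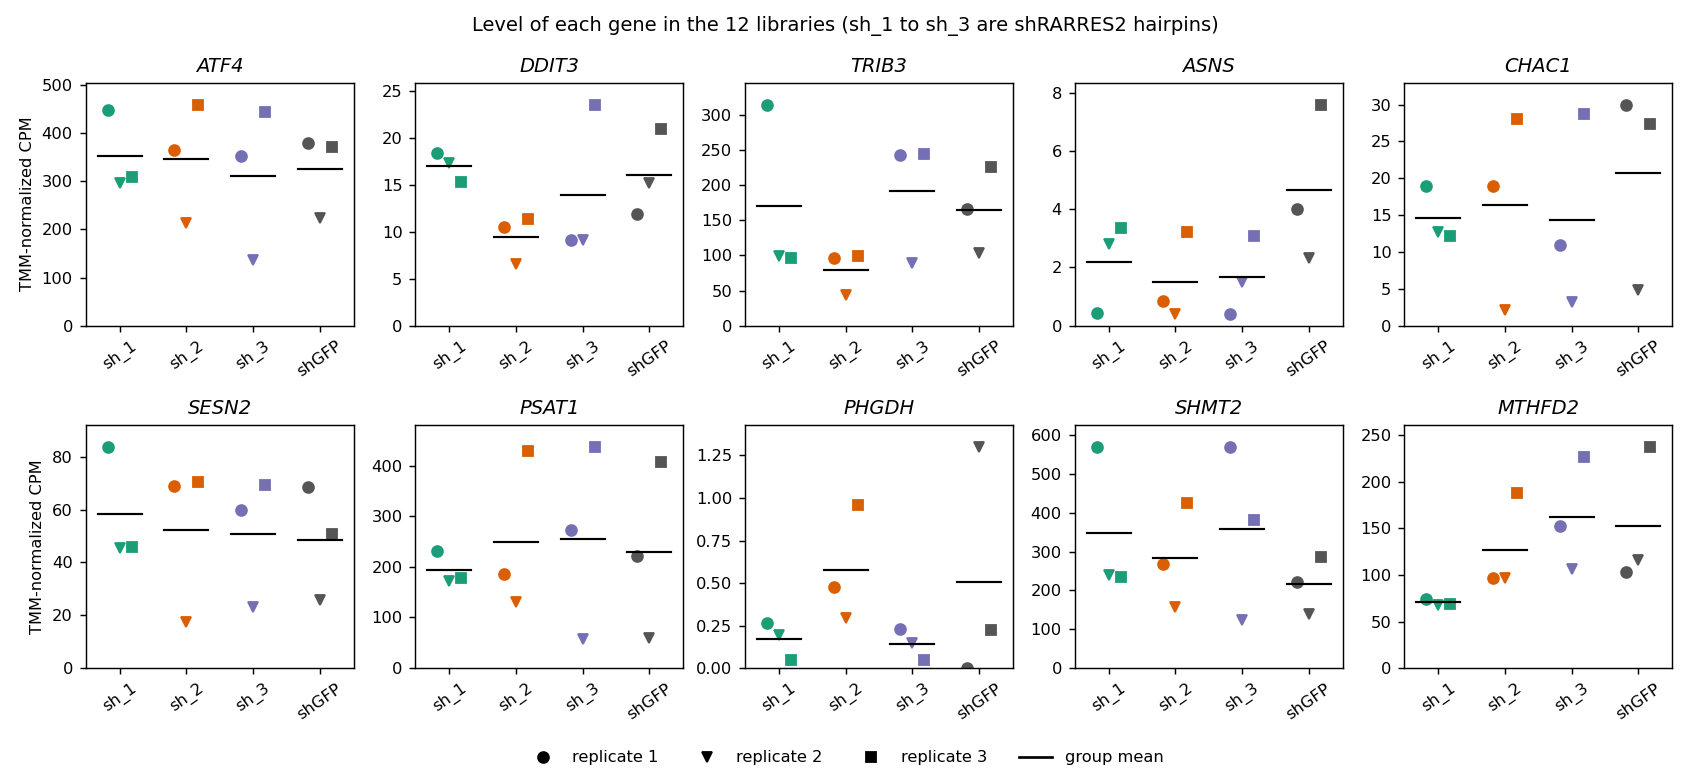
Level of each of the 10 genes in the 12 libraries, as TMM-normalized CPM on linear axes that start at 0, with hairpin groups left of shGFP, a marker shape for each replicate number and a bar for the group mean. Replicate 2 of shRARRES2_2, shRARRES2_3 and shGFP lies low in most panels, ASNS stays below 8 CPM, and PHGDH stays below 2 CPM.

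Of the serine route, PHGDH, the first and usually rate-setting enzyme (chromosome 1, 119648411 to 119744226, plus strand), had at most 25 reads in any library. It had 5, 4 and 1 reads with shRARRES2_1, 9, 5 and 22 with shRARRES2_2 and 4, 3 and 1 with shRARRES2_3, against 0, 25 and 5 with shGFP, the 0 allowing up to 0.223 CPM. The highest library, shGFP replicate 2 at 1.299 CPM, is also the library with the keratinocyte markers at 467 CPM, whose part in that value was not tested. PSAT1, the aminotransferase of the next step (chromosome 9, 78297143 to 78330093, plus strand), was by contrast abundant, at 231, 172 and 177 CPM with shRARRES2_1, 186, 131 and 429 CPM with shRARRES2_2 and 272, 58.4 and 437 CPM with shRARRES2_3, against 222, 60.4 and 408 CPM with shGFP. Its groups overlapped fully, with 1.43% of the variance between them and a log2 difference of 0.18 for the mean of the hairpins (SE 0.62, limma adjusted p = 0.894). Without shGFP replicate 2 that difference was -0.59. Per kilobase of annotated exon, PHGDH stood at 0 to 0.511% of PSAT1 in the 12 libraries.

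SHMT2, which moves the carbon of serine onto mitochondrial folate (chromosome 12, 57229327 to 57234935, plus strand), was at 569, 239 and 234 CPM with shRARRES2_1, 267, 158 and 425 CPM with shRARRES2_2 and 568, 123 and 383 CPM with shRARRES2_3, against 221, 139 and 287 CPM with shGFP. Group means were higher with each hairpin, but all overlapped the control, and the mean of the hairpins differed by 0.49 (SE 0.46, limma adjusted p = 0.596). Above every control library lay only replicate 1 of shRARRES2_1, replicate 3 of shRARRES2_2 and replicates 1 and 3 of shRARRES2_3. Without replicate 3 of shRARRES2_2 the log2 difference of that hairpin was -0.012. MTHFD2, the mitochondrial folate dehydrogenase and cyclohydrolase of the next step (chromosome 2, 74198562 to 74217565, plus strand), was at 74.2, 68.0 and 69.2 CPM with shRARRES2_1, against 103, 116 and 237 CPM with shGFP. All 3 libraries of that hairpin lay below all control libraries, at a log2 difference of -0.997 (SE 0.38, limma adjusted p = 0.255). With shRARRES2_2 it was at 96.2, 96.2 and 188 CPM and with shRARRES2_3 at 152, 107 and 227 CPM, both overlapping the control. The F-test between the hairpins did not pass for MTHFD2 either (limma adjusted p = 0.400). Exons of both SHMT2 and MTHFD2 overlap genes on the opposite strand, NDUFA4L2 and SLC4A5 among them.

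**Figure D2:**
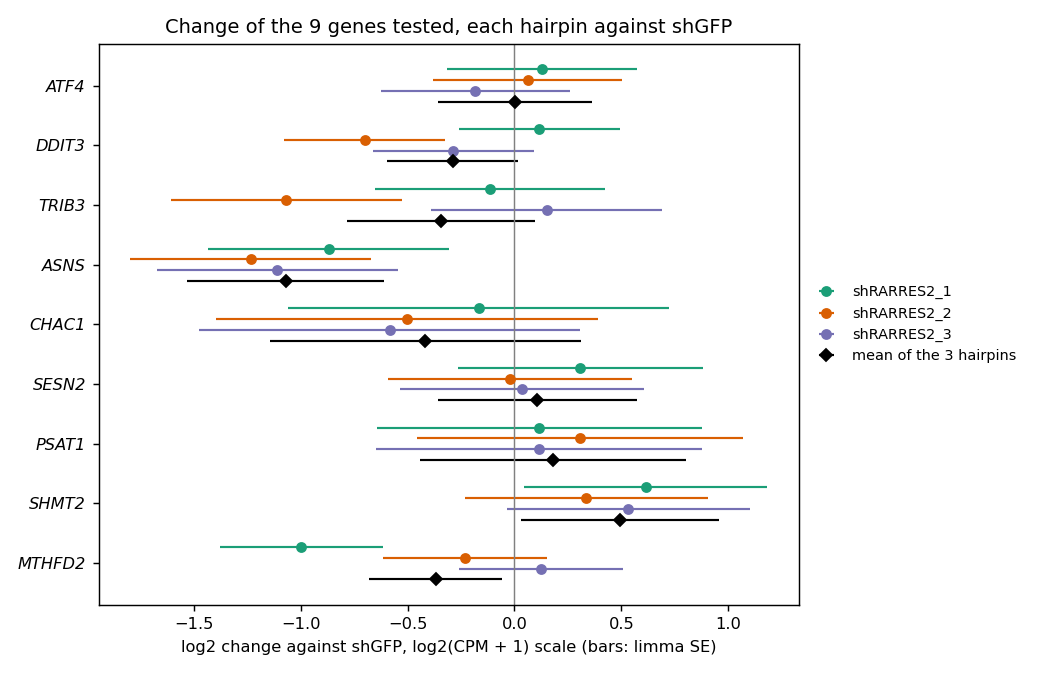
Log2 difference from shGFP, on the log2(CPM + 1) scale, of the 9 genes tested for each hairpin and for the mean of the hairpins; bars are limma standard errors. ASNS and CHAC1 lie left of 0 for all 3 hairpins, and PSAT1 and SHMT2 lie right of 0 for all 3. TRIB3 and DDIT3 lie farthest left with shRARRES2_2 and MTHFD2 with shRARRES2_1, and none passed the adjusted threshold.

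Within the control cells the 10 mRNAs spanned several levels per kilobase of exon. ATF4 was at 129 ± 34.7 CPM per kb, PSAT1 at 105 ± 79.5, TRIB3 at 48.1 ± 17.8, SHMT2 at 44.6 ± 15.3 and MTHFD2 at 31.2 ± 15.2 CPM per kb (SD, n = 3), and neighbours in this order overlapped. SESN2 at 14.0 ± 6.21, DDIT3 at 12.3 ± 3.48 and CHAC1 at 10.1 ± 6.73 CPM per kb formed a lower step whose members overlapped each other, with SESN2 below the range of MTHFD2. ASNS at 1.04 ± 0.602 CPM per kb lay below CHAC1 without overlap, and PHGDH at 0.0550 ± 0.0754 CPM per kb lay below ASNS. ATF4 exceeded 98.6% of 15224 tested genes with a length in shGFP, whereas ASNS exceeded 20.5%. Lengths are those of all annotated exons joined, so a gene with many isoforms is understated.

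**Figure D3:**
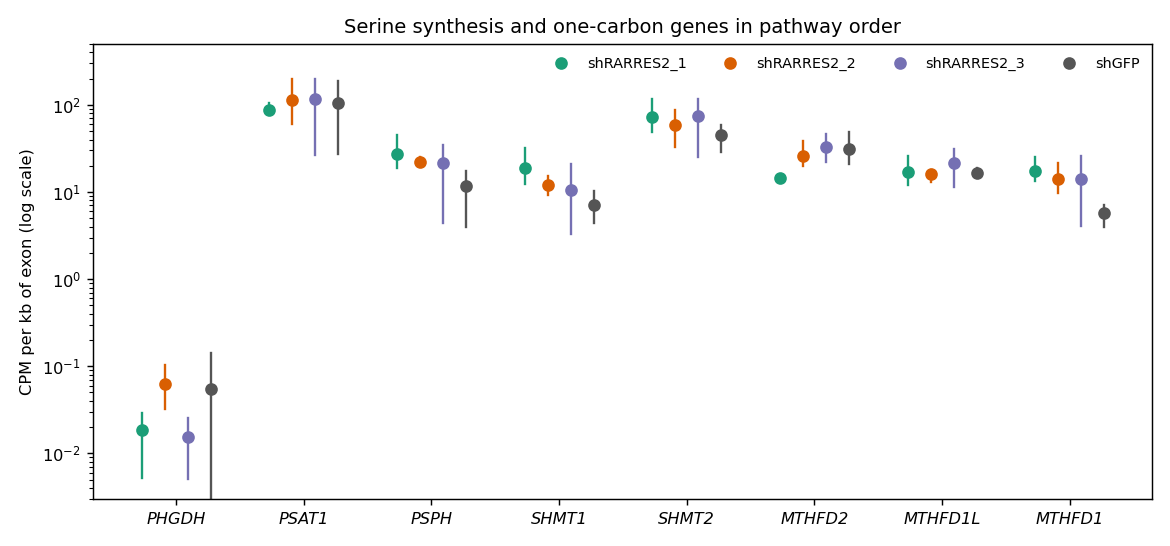
CPM per kilobase of exon, on a log axis, of PHGDH, PSAT1, PSPH and the folate enzymes SHMT1, SHMT2, MTHFD2, MTHFD1L and MTHFD1, hairpin groups left of shGFP; points are means and lines run from the lowest to the highest of 3 libraries. PHGDH lies below 1 CPM per kb in all 4 groups, and the control's line leaves the axis because 1 library is at 0.

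The share of a member's variance that lay between the groups ran from 1.43% for PSAT1 to 52.6% for MTHFD2, against a median of 33.5% over all genes tested. In shRARRES2_2, shRARRES2_3 and shGFP, replicate 2 was below the mean of replicates 1 and 3 for 9 of 9 members, with median ratios of 0.444, 0.359 and 0.528, while the medians over all genes tested were 0.974, 0.899 and 0.942. In shRARRES2_1 7 of 9 were below it, with a median ratio of 0.812 against 1.03 over all genes. In that group replicate 1 was the highest library for 8 of 9 members, against 42.3% of all genes tested. Its replicates 2 and 3 were each the lowest for 4 members, so replicate 2 did not stand apart there. CHAC1 was the most uneven, at 0.0886 of the mean of its replicates in shRARRES2_2 and 0.163 in shRARRES2_3, against 0.167 in shGFP. The labels give no batch or date for these libraries. Proliferation markers, summed, were at 320 CPM in replicate 2 of shRARRES2_3 against 2173 and 3160 CPM in its replicates, and at 198 CPM in replicate 2 of shGFP against 1128 and 1188 CPM. In shRARRES2_2, replicate 2 had the highest sum of its group, 2312 CPM against 751 and 1737 CPM. The part of proliferation in the members' values was not tested. The standard deviation of CHAC1 over the 12 libraries exceeded that of 97.1% of genes tested, that of PSAT1 93.5% and that of ATF4 55.1%.

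**Figure D4:**
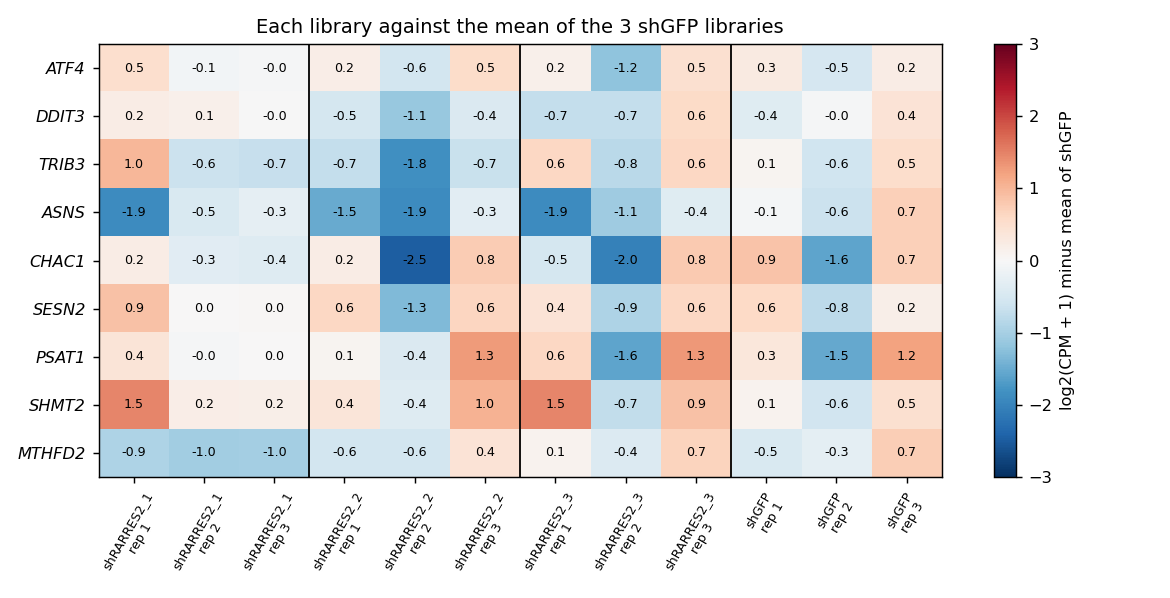
Each library's log2(CPM + 1) minus the mean of the 3 shGFP libraries for the 9 genes tested, hairpin groups left of shGFP. The columns of replicate 2 in shRARRES2_2, shRARRES2_3 and shGFP are blue for most genes, and the shRARRES2_1 columns are blue for MTHFD2 and ASNS.

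Over the 12 libraries, and outside the members, ATF4 was most closely followed by SMCO4, WARS and WIPI1 (Pearson r = 0.920, 0.915 and 0.913 of log2 values), of which WARS encodes the cytosolic tryptophanyl-tRNA synthetase. ASNS was followed by PELI1, SLC25A37 and MAP3K15 (r = 0.953, 0.939 and 0.933). PHGDH was followed by PDGFRB (r = 0.931), GTF2E2 (r = 0.892) and COX7C (r = 0.836), but its pattern rests on 0 to 25 reads per library. PDGFRB is 1 of the 5 fibroblast markers, and PHGDH and PDGFRB both peaked in shGFP replicate 2, at 1.299 and 4.47 CPM. All these r are the highest of 15236 genes, the libraries share groups and replicate numbers, and the values are descriptions.

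Of 91 other genes of the pathway, 83 were tested, and 1 changed. NDRG1, a stress-responsive gene also driven by hypoxia-inducible factors, fell with shRARRES2_2, to 177 ± 63.9 CPM against 975 ± 194 CPM with shGFP (SD, n = 3; log2 difference -2.49, SE 0.34, limma adjusted p = 0.0255), and differed between the hairpins (adjusted p = 0.0152). With the other hairpins NDRG1 was nearer the control, at 918 ± 170 CPM for shRARRES2_1 and 801 ± 202 CPM for shRARRES2_3, and neither passed. EPAS1, a marker of this renal line that encodes the hypoxia-inducible factor HIF-2 alpha, fell in the same comparison, to 86.1 ± 11.8 CPM with shRARRES2_2 against 641 ± 319 CPM with shGFP (limma adjusted p = 0.0107). With the other hairpins EPAS1 was at 255 ± 20.4 CPM for shRARRES2_1 and 350 ± 80.1 CPM for shRARRES2_3, and neither passed (limma adjusted p = 0.154 and 0.876). EPAS1 also differed between the hairpins (limma adjusted p = 0.0441), a call that held in 12 of 27 alternative settings. The part of EPAS1 in the NDRG1 result was not tested. Both calls with shRARRES2_2 ended when only that hairpin and shGFP entered the fit (limma adjusted p = 0.0657 for each). They also ended when replicate 1 or 2 of shRARRES2_2 was left out. The call of NDRG1 held in 15 of 27 alternative settings. Over all 27, called or not, its log2 difference ran from -2.77 to -2.34. Leaving out replicate 1 or 3 of shGFP, replicate 2 or 3 of shRARRES2_1 or replicate 3 of shRARRES2_3 also ended the NDRG1 call (adjusted p up to 0.183). The difference of NDRG1 between the hairpins was called in 19 of 27 settings. With shRARRES2_1 0 of the 83 and with shRARRES2_3 0 of the 83 passed. An unadjusted p under 0.05 was found for 11 of the 83 with shRARRES2_1 (13.3%), 15 with shRARRES2_2 (18.1%) and 5 with shRARRES2_3 (6.02%), beside the shares over all genes given above.

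Of the 17 genes of the eIF2 axis, none passed in any comparison, and their median log2 difference for the mean of the hairpins was 0.08, against 0.04 over all genes tested. The largest differences were those of the phosphatase catalytic subunit PPP1CA (0.96, SE 0.56), of EIF2S1, the phosphorylated subunit itself (0.63, SE 0.27), and of the phosphatase cofactor PPP1R15A (-0.54, SE 0.27). None of the 10 dimer partners and related factors passed either, with a median of -0.13. CEBPB, the C/EBP partner, was at 191 ± 4.32 CPM with shRARRES2_1, 92.2 ± 77.1 CPM with shRARRES2_2 and 293 ± 132 CPM with shRARRES2_3, against 374 ± 158 CPM with shGFP, and its smallest limma adjusted p was 0.171. ATF3 and JUN differed by -1.07 (SE 0.54) and -0.98 (SE 0.30) for the mean of the hairpins.

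Among 17 other ATF4 targets tested, 13 had a log2 difference below 0 for the mean of the hairpins (median -0.32). Over all genes tested, 7132 of 15236 did (median 0.04). Of the 17 targets, only NDRG1 passed in any comparison. DDIT4, an mTORC1 inhibitor, differed by -1.17 (SE 0.73, limma adjusted p = 0.465) and KLHL24 by -1.09 (SE 0.65, adjusted p = 0.453). Among 10 amino acid transporter genes, none passed. SLC43A1 differed by 0.66 (SE 0.28), SLC36A4 by -0.65 (SE 0.32) and SLC1A4 by 0.58 (SE 0.56), the last at -0.020 without shGFP replicate 2.

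Of 7 other serine and glycine genes, 5 lay above 0 for the mean of the hairpins with a median of 0.73, and none passed. Over all genes tested, 8104 of 15236 lay above 0 in this comparison, with a median of 0.04. PSPH, the phosphatase that completes serine synthesis, was at 76.1 ± 40.9 CPM with shRARRES2_1, 61.6 ± 7.15 CPM with shRARRES2_2 and 60.01 ± 43.0 CPM with shRARRES2_3, against 32.5 ± 19.3 CPM with shGFP (log2 difference for the mean 1.04, SE 0.57, limma adjusted p = 0.435). SDSL, a serine dehydratase homolog, differed by 1.51 (SE 0.57, adjusted p = 0.384) and the cytosolic SHMT1 by 0.80 (SE 0.48). Of 13 folate genes 9 lay above 0, with a median of 0.15, and none passed. The cytosolic MTHFD1 differed by 1.25 (SE 0.46, limma adjusted p = 0.384; 0.0476 without shRARRES2_3 replicate 2) and FPGS, which adds glutamates to folates, by 0.82 (SE 0.47). The 8 proliferation markers all lay above 0 in the same comparison, with a median of 1.29 and none passing; their part in these values was not tested. Of 10 tested regulators upstream of ATF4, none passed; MYC differed by -0.59 (SE 0.27), RPTOR by 0.49 (SE 0.31) and RHEB by 0.41 (SE 0.25).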

How the data were processed

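RNA was measured in 12 libraries, given in 1 table. The authors deposited TMM-normalized CPM, a depth-scaled signal per gene; the submitters' processing notes name GRCh38 and the tools STAR 2.5.2, Trim Galore 0.6.1, edgeR and CASAVA. The annotation and strand setting of their counting are not given in the sources used here. Although the tests were planned for CPM without TMM factors, limma was kept. All values (100%) were whole multiples of 1 read at a relative tolerance of 1e-06, and these reads gave the depths and served edgeR 4.0.16 and DESeq2 1.42.0 as alternatives. The main test was limma 3.58.1 in R 4.3.3 on log2(CPM + 1), which understates changes of low genes, with a mean-variance trend, group means over all 12 libraries and Benjamini-Hochberg adjustment at 0.05; genes needed 1 CPM in 3 libraries. Deviations from group means correlated over 0.1 for all 3 same-numbered pairs of shRARRES2_3 with shGFP (0.272 to 0.604). The same held for shRARRES2_3 with shRARRES2_1 (0.413 to 0.754). In the other 4 pairs of groups at least 1 number fell short, and differently numbered libraries ran from -0.724 to 0.482. Replicate 1 of shGFP correlated at 0.387 with replicate 3 of shRARRES2_3, against 0.272 with its replicate 1. Replicate 3 of shRARRES2_1 correlated at 0.482 with replicate 2 of shRARRES2_3, against 0.413 with its replicate 3. This check does not settle whether the replicate numbers pair the groups, and the labels do not say. A replicate block is therefore an alternative. Simulated data with known changes served to test the limma code, without a replicate block. Their spread was set rather than taken from these libraries, so they do not give the power of the tests here. Of 58381 identifiers, 58261 matched GENCODE 29; promoters are RefSeq's. Members, lists and alternatives were chosen with earlier results of these data known. Named genes were the members, any pathway gene called, the 3 of each list with the largest absolute change for the mean of the hairpins, and the 3 closest patterns to ATF4, ASNS and PHGDH. EPAS1, a marker, is named because it was called. Of the pathway list, DELE1 was not matched by name. A gene that this rule names is not reported here. The floor given for a value of 0 covers counting error only, while the SDs and limma standard errors measure the spread between libraries.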

Additional observations from a re-analysis of the deposited data

How the results depend on the processing

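None of the 9 tested members was called under any of the 27 alternative settings (26 planned and 1 added), with limma, edgeR or DESeq2, in any comparison that was run; the mean of the hairpins could not be had from fits of only the groups compared. Their smallest adjusted p was 0.0609, for TRIB3 with shRARRES2_2 when 4 libraries close to another group were removed. Of 959 recomputed log2 differences, 876 kept their sign, and 11 of 36 differences kept it in every setting; the largest that turned was 0.61 in size. The cause was not tested. ASNS was negative wherever it was tested and dropped out under a filter of 5 CPM.

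The values that turned are the following. Rescaling libraries to a common total gave ATF4 -0.053 with shRARRES2_2 and -0.092 for the mean of the hairpins, and SESN2 -0.073 with shRARRES2_3. Median-of-ratios size factors gave ATF4 -0.015 with shRARRES2_2 and -0.026 for the mean. edgeR gave TRIB3 0.0022 and PSAT1 -0.28 with shRARRES2_1, SESN2 0.033 with shRARRES2_2, and ATF4 -0.0099 and PSAT1 -0.036 for the mean. DESeq2 gave TRIB3 0.046 and PSAT1 -0.25 with shRARRES2_1, SESN2 0.022 with shRARRES2_2, and ATF4 -2.56e-05 and PSAT1 -0.025 for the mean. Counting replicates 2 and 3 of shRARRES2_1 as 1 library gave TRIB3 0.16 with that hairpin. The 4 close libraries were replicate 2 of shGFP, replicate 1 of shRARRES2_1 and replicates 1 and 2 of shRARRES2_3, so that only replicate 3 of shRARRES2_3 remained. Removing the 4 close libraries gave ATF4 -0.31, SESN2 -0.37, PSAT1 -0.79 and SHMT2 -0.093 with shRARRES2_1, ATF4 -0.18 and PSAT1 -0.46 with shRARRES2_2, ATF4 0.24, DDIT3 0.54 and CHAC1 0.0077 with shRARRES2_3, and ATF4 -0.083, SESN2 -0.18 and PSAT1 -0.24 for the mean. Removing replicate 2 of shRARRES2_2, shRARRES2_3 and shGFP, an alternative chosen after seeing the data, gave ATF4 -0.12, SESN2 -0.078 and PSAT1 -0.65 with shRARRES2_1, SESN2 0.24 and PSAT1 -0.090 with shRARRES2_2, ATF4 0.078 with shRARRES2_3 and PSAT1 -0.18 for the mean.

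Leaving out 1 library at a time turned these differences within the following ranges. With shRARRES2_1 they were -0.12 to 0.26 for ATF4, -0.064 to 0.32 for DDIT3, -0.67 to 0.17 for TRIB3, -0.95 to 0.26 for CHAC1, -0.078 to 0.61 for SESN2 and -0.65 to 0.72 for PSAT1. With shRARRES2_2 they were -0.18 to 0.37 for ATF4, -1.29 to 0.49 for CHAC1, -0.41 to 0.62 for SESN2, -0.46 to 0.91 for PSAT1, -0.012 to 0.70 for SHMT2 and -0.55 to 0.14 for MTHFD2. With shRARRES2_3 they were -0.52 to 0.32 for ATF4, -0.15 to 0.63 for TRIB3, -1.37 to 0.13 for CHAC1, -0.35 to 0.51 for SESN2, -0.65 to 0.96 for PSAT1 and -0.15 to 0.50 for MTHFD2. For the mean they were -0.24 to 0.17 for ATF4, -1.20 to 0.0080 for CHAC1, -0.28 to 0.41 for SESN2, -0.59 to 0.78 for PSAT1 and -0.59 to 0.0021 for MTHFD2, and, outside the members, -0.020 to 1.08 for SLC1A4.

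Counts over all genes moved more. With shRARRES2_1 limma called 26 genes, edgeR 3 and DESeq2 497; with shRARRES2_2 they called 7, 4 and 345; for the mean of the hairpins 1, 1 and 132; between the hairpins 38, 20 and 590. With only the groups compared in the fit, shRARRES2_1 gave 62 calls and shRARRES2_2 and the F-test 0; with the 4 close libraries removed, they gave 149, 700 and 125. Without replicate 2 of shRARRES2_3 the mean of the hairpins called 358 genes, shRARRES2_1 195 and shRARRES2_2 119, and without replicate 2 or 3 of shRARRES2_1 the F-test called 0. With the replicate number as a block, 0 members were called and 21, 10, 1, 1 and 53 genes in all with shRARRES2_1, shRARRES2_2, shRARRES2_3, the mean and the F-test. The block changed no call of a member. Since the numbers are not shown to pair the groups, the block is only a hint from the data. Depth limits ASNS, at 7 to 171 reads per library, and PHGDH, at 0 to 25, most among the members.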
